A study of Mus musculus with 24 samples.

Results

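AMOUR amplifies RNA displayed on the outer membrane of cells in place, and it was applied to 5 blood cell types of the mouse. The surface transcripts annotated as microRNA are described here. A member was a transcript of gene type miRNA that had a row in all 5 surface tables and lay above 10 TPM (transcripts per 1000000, a share of a library per transcript length) in at least 1 of the 15 libraries. Of 1161 such microRNA rows, 278 passed, and 883 stayed at or under 10 TPM in all 15 libraries. Transcripts with the same values in every library were counted as 1, which left 270 members: 137 named Mir, 132 named with a Gm number and 1 named Snord43. They stood among 102001 transcripts listed in all 5 tables, of which 6119 distinct ones passed the same floor. The members were thus selected on their measured TPM, and their being above 10 TPM is no finding.

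All animals were C57BL/6 mice with a wild-type genotype. B cells, T cells (taken with a CD8 T cell isolation kit) and NK cells came from spleen, whereas HSPCs (hematopoietic stem and progenitor cells, taken with a lineage depletion kit) and monocytes (taken with a monocyte isolation kit) came from bone marrow. Each cell type had 3 libraries. Cells were fixed in 4% paraformaldehyde and held on concanavalin A beads, a T7 promoter oligo with a random overhang was annealed to exposed RNA, and T7 RNA polymerase amplified it in place. Besides these, 9 libraries of total RNA from PBMCs (peripheral blood mononuclear cells) in 3 groups of 3, named ct, WT and Y in the labels, were used for levels only. According to the study's methods, monocyte libraries were sequenced on a different platform from those of the other types, so for monocytes platform and cell type cannot be told apart.

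A microRNA is transcribed as part of a longer RNA that folds back into a hairpin. The nuclear enzyme Drosha cuts the hairpin free, the cytoplasmic enzyme Dicer trims it to a short duplex, and 1 strand, the mature microRNA, is loaded into an Argonaute protein. The loaded strand finds messenger RNAs by its seed, bases 2 to 8 counted from the 5′ end, and lowers their translation or stability. In blood, miR-142 is known as a marker of nearly all hematopoietic cells, miR-150 of mature lymphocytes, miR-155 of activated lymphocytes and miR-223 of myeloid cells.

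The mature sequences of the members on which the results turn are shown here with the seed in capitals and the rest in lower case. They were read from RefSeq (build GRCm38.p6), where 119 members had at least 1 mature sequence. The set holds hairpins that are described below by name: 2 abundant ones (miR-6236 and miR-6240), blood microRNAs that differed between cell types, the paralogs of the miR-23/27/24 clusters, which share seeds, miR-5120 and miR-132 as hairpins of B and NK cells, and miR-677, which holds letters of a snoRNA motif. For Mir150 the 3p strand is shown, and miR-150-5p is named only.
mmu-miR-142a-5p: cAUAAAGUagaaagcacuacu
mmu-miR-142a-3p: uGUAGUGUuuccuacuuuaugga
mmu-miR-150-3p: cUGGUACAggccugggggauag
mmu-miR-139-5p: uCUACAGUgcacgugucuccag
mmu-miR-155-5p: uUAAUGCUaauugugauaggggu
mmu-miR-27a-3p: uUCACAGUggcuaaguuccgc
mmu-miR-27b-3p: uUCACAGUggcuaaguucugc
mmu-miR-24-3p: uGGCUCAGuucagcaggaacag
mmu-let-7f-5p: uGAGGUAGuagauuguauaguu
mmu-let-7i-5p: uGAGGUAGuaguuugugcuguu
mmu-miR-132-3p: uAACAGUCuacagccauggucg
mmu-miR-5120: uUUGGGGCuguggugccaccagc
mmu-miR-223-3p: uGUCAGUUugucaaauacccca
mmu-miR-6236: gCCGUCGCcggcagucagg
mmu-miR-6240: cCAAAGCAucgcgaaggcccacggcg
mmu-miR-677-5p: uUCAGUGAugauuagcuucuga

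The values belong to the annotated hairpins, not to these mature strands. Of the 270 members, 137 (133 Mir, 3 Gm and Snord43) had a gene of the same identifier in the GENCODE M21 annotation of GRCm38, and 133 did not (129 Gm, 4 Mir). The matched hairpins were 51 to 147 bases long with a median of 76, and their GC content ran from 25.3% to 79.8% with a median of 52.1%. The 206 mature sequences were 18 to 26 bases long. The counting program kallisto matches stretches of 31 bases by default, which is longer than any of them, but the setting that was used is not given in the sources used here. For 118 of the 137 matched members another gene was annotated over the hairpin on the same strand, and for 35 an exon of it. A stretch of 31 bases or more was shared with another gene by 37 members, so that for these a read could belong to either.

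The microRNA rows took between 11.2% and 34.5% of the TPM of each library outside HSPCs, and 77.2% to 85.4% in HSPCs. Most of this lay in 3 same-valued transcripts, Gm55936, Gm55094 and Gm55118, counted as 1 member, which held 96.3% to 97.5% of it in HSPCs and 71.4% to 91.3% in the other libraries. Their summed share was 83.3%, 74.3% and 79.5% in HSPCs. B cells had 31.5%, 14.2% and 10.6%, T cells 9.72%, 13.8% and 11.0%, NK cells 25.5%, 30.4% and 30.9%, and monocytes 12.1%, 14.1% and 17.5%. HSPCs stood above all 12 other libraries. B cell library 1 lay above the NK cells, and the other B cell libraries lay among T cells and monocytes. The log2 fold change of each of these transcripts in HSPCs against the mean of the other 4 types was 2.23 ± 0.23 (SE; limma, adjusted p 6.16e-06). No description of the 3 genes beyond their gene type was found in the reference tables.

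A share this large lowers every other TPM value of a library. Calls were therefore made on a pair of scales: TPM as deposited, and TPM rescaled to a total of 1000000 after removal of gene type rRNA and of these 3 entries, which multiplied the remaining values by 7.63 to 11.1 in HSPCs and by 2.02 to 3.97 in the other libraries. Values are on the deposited scale unless rescaling is named, and for a called member the rescaled value is given where it ends a printed call or turns its direction. A fold change compares the mean of log2(TPM + 1) over the 3 libraries of a cell type with the mean of the other 4 types, and a transcript was called by limma where the Benjamini-Hochberg adjusted p over all 6119 transcripts (6063 after rescaling) was under 0.05. On the deposited scale the median log2 fold change over all transcripts tested was 2.90 in monocytes, −0.50 in NK cells, −0.82 in HSPCs, −1.09 in T cells and −0.58 in B cells. Rescaling moved it to 2.68, −0.70, 0.27, −1.80 and −0.50. A member near these values moved with the bulk of the transcripts of that cell type.

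Mir6236, the second most abundant member, took 0.797% to 4.08% of the deposited TPM. The remaining Mir together took 0.071% to 0.314%, and the remaining Gm entries with Snord43 took 0.191% to 0.437% outside monocytes and 2.65% to 2.92% in monocytes. After rescaling, Mir6236 took 20.6%, 19.5% and 20.8% of the HSPC libraries, 10.2% to 15.4% of B cells, 6.61% to 10.1% of NK cells, 1.92% to 3.76% of T cells and 1.70% to 1.88% of monocytes. The remaining Mir took 0.392% to 0.789% of every library on that scale, and monocytes, with 0.463% at most, overlapped with B cells alone.

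**Figure D1:**
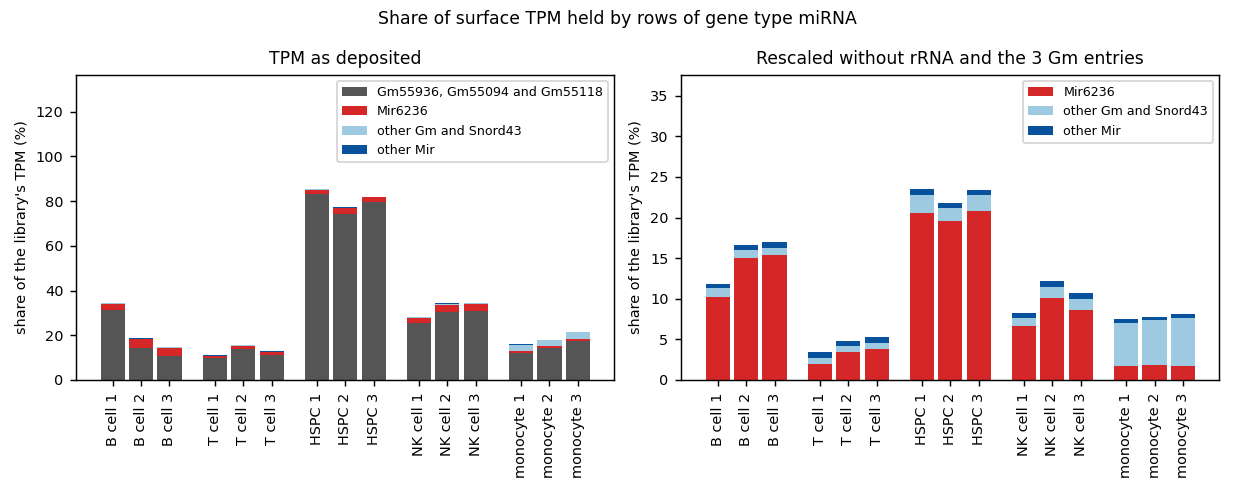
Share of each surface library's TPM (percent, bars from 0) held by rows of gene type miRNA, in TPM as deposited (left) and rescaled without gene type rRNA and the 3 Gm entries (right), with 1 bar per library. The 3 entries fill 74.3% to 83.3% of the HSPC libraries on the left, and on the right Mir6236 makes up most of the microRNA share of B cells, HSPCs and NK cells but not of monocytes.

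The other members were few in each library. B cell libraries had 32, 46 and 43 members above 10 TPM, T cells 47, 47 and 48, HSPCs 20, 21 and 21, NK cells 55, 49 and 60, and monocytes 137, 131 and 125. As deposited, HSPC libraries thus had the fewest and monocytes the most, without overlap with any other type. The order of HSPCs did not hold after rescaling, where the members above 10 numbered 96 to 107 in HSPCs, 67 to 89 in T cells, 77 to 95 in B cells, 91 to 108 in NK cells and 143 to 150 in monocytes. In 13 members the value was above 10 TPM in all 15 libraries: 9 Gm entries and the hairpins Mir6236, Mir6240, Mir5125 and Mir8114. By contrast 129 members exceeded 10 TPM in exactly 1 library, which was a monocyte library for 115, an NK library for 7, a B cell library for 5, a T cell library for 2 and an HSPC library for 0.

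The low end of the scale also differed. Values above 0 but under 5 TPM were found for only 3, 5 and 8 members in the monocyte libraries, against 71 to 156 in the other 12, and the lowest value above 0 was 0.136 to 1.85 TPM in monocytes. TPM keeps no depth, and the part of depth or platform in the number of monocyte members was not tested. Members above 10 TPM in monocyte libraries only numbered 171 (75 Mir, 96 Gm). A stricter description, above 10 TPM in all 3 libraries of at least 1 cell type, held for 81 members (36 Mir, 44 Gm and Snord43): 59 in monocytes, 40 in NK cells, 18 in HSPCs, 35 in T cells and 26 in B cells. Of these, 29, 3, 1, 5 and 3 respectively met it in that cell type alone.

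**Figure D2:**
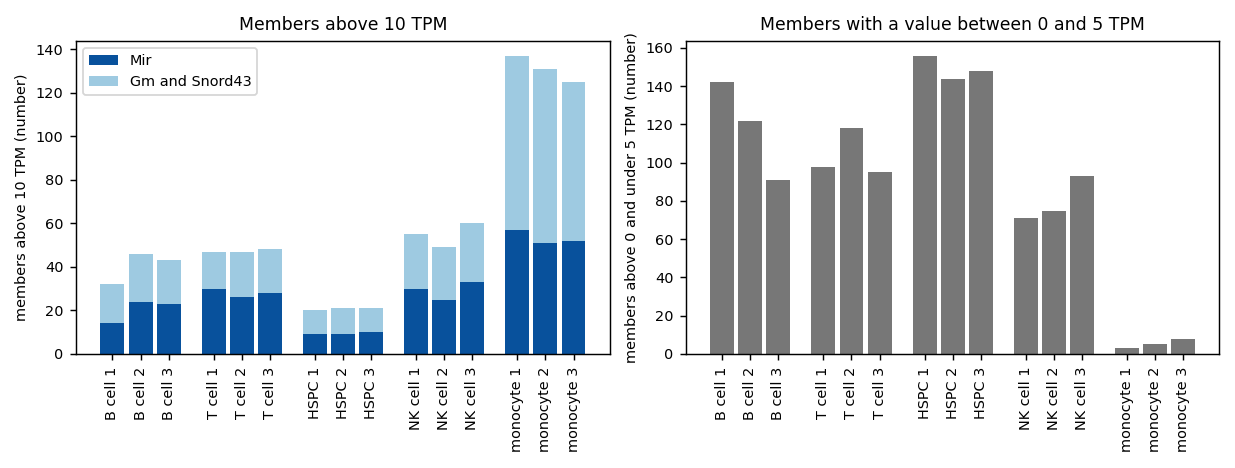
Number of members above 10 TPM in each library, split into Mir and other names (left), and number with a value above 0 and under 5 TPM (right), bars from 0. The 3 monocyte libraries have 125 to 137 members above 10 TPM and 3 to 8 between 0 and 5 TPM, and the HSPC libraries 20 or 21 above 10 TPM and 144 to 156 between 0 and 5 TPM.

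The 2 entries nearest the floor on each side were monocyte values. Gm55272 and Mir7033 passed with a highest value of 10.1 TPM each, both in monocyte library 3, and the rows that just missed it were Gm54449 with 9.998 TPM and Gm54531 with 9.96 TPM, both also in monocytes. The next rows below these, from 9.92 down to 9.75 TPM, peaked in B or NK cell libraries. The median of the highest value per member was 21 TPM for Mir and 18.9 TPM for Gm, so many members lay near the floor.

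Each cell type was compared with the mean of the other 4 to ask which members differ between cell surfaces. For a member that passed the floor only through the group where it is high, the floor favoured a higher call there without forcing it. These counts therefore describe the members and are read against the share of all transcripts called in the same direction. In B cells 22 members were called higher (17 Mir, 5 Gm), 8.15% of members against 8.27% of all transcripts tested, and 34 lower, 12.6% against 50.8%. In T cells 31 were called higher (27 Mir, 3 Gm and Snord43), 11.5% against 5.59%, and 40 lower, 14.8% against 75.4%. In HSPCs 3 were called higher, 1.11% against 0.981%, and 71 lower, 26.3% against 70.3%. In NK cells 30 were called higher (23 Mir, 6 Gm and Snord43), 11.1% against 4.53%, and 23 lower, 8.52% against 45.1%. In monocytes 103 were called higher (32 Mir, 71 Gm), 38.1% against 86.7%, and 39 lower (34 Mir, 5 Gm), 14.4% against 4.17%. Quantile normalization turned the balance in monocytes to 38 higher and 68 lower and in T cells to 55 higher and 19 lower. The share of all transcripts called under that setting is not given here, so the turn is not read as a result about the members.

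The same caution holds for single members that were above 10 TPM in 1 cell type only and were called higher there, since the values that chose them are those tested. Of the members named below these are Mir5107, Mir5120, Mir7212, Mirlet7i and Mir16-1 in B cells, Mir1904, Mirlet7b and Mir24-1 in T cells, and Mir132, Mir30a and Mir19b-1 in NK cells. In monocytes they are Gm55437, Gm55288, Gm55460, Gm55272, Mir1843b, Mir223, Mir128-1 and Mir16-2.

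After rescaling, 21 members were called higher and 19 lower in B cells, against a background of 10.3% and 35.8%. T cells had 24 higher and 44 lower (background 4.27% and 78.9%), HSPCs 28 higher and 33 lower (28.3% and 15.6%), NK cells 22 higher and 22 lower (3.65% and 42.9%), and monocytes 75 higher and 47 lower (82.8% and 6.23%). The same members were called on both scales for 75 higher in monocytes, 22 in NK cells, 24 in T cells and 19 in B cells, but for only 2 in HSPCs. On the deposited scale the median log2 fold change of the members was 1.07 in monocytes, −0.17 in NK cells, −0.67 in HSPCs, −0.33 in T cells and −0.38 in B cells. In all 5 contrasts it lay closer to 0 than the median of all transcripts given above.

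**Figure D3:**
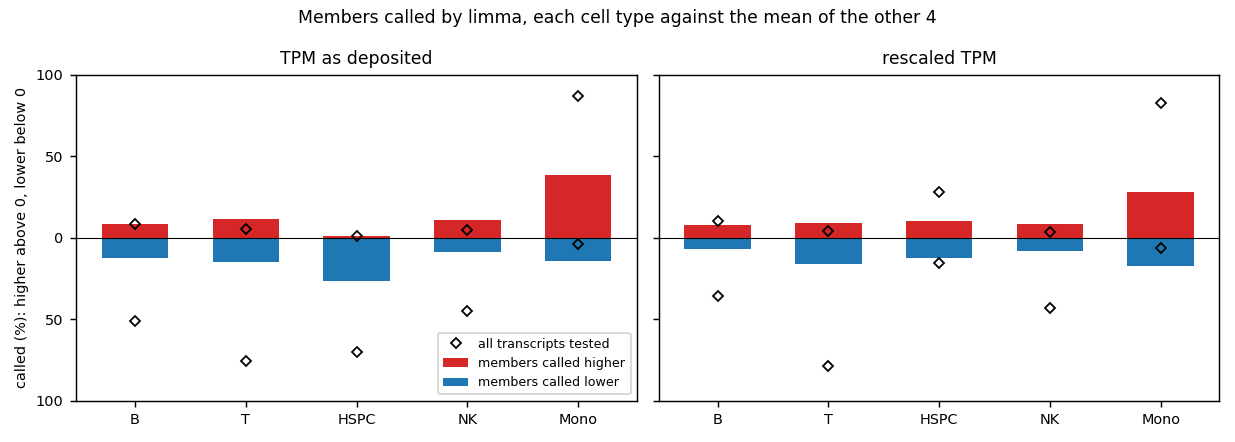
Share of the members called higher (bars above 0) and lower (bars below 0) by limma when a cell type is set against the mean of the remaining 4, in percent, with the share of all transcripts tested as open diamonds, for TPM as deposited (left) and rescaled (right). The monocyte diamonds reach 86.7% and 82.8% higher, whereas the member bars reach 38.1% and 27.9%.

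The library markers bear on these contrasts. The summed TPM of 5 B cell genes was 898 to 1283 in B cells, 127 to 149 in NK cells and at most 52.2 elsewhere, and the T, NK and monocyte lists were each highest in their own type. The HSPC list (Kit, Cd34, Myb, Gata2 and Flt3) ran from 14.2 to 23.7 in the HSPC libraries but reached 39.6 to 52.2 in monocytes and 10.4 to 24.3 in NK cells, so it did not set HSPCs apart. A list of 5 neutrophil genes summed to 1381 to 1490 in monocytes and at most 0.343 in B and T cells, with NK cells at 24.3 to 33.9 and HSPCs at 11.0 to 53.5. Similarly, 3 platelet genes summed to 74.4 to 103 in monocytes, 15.9 to 29.0 in HSPCs, 3.48 to 6.51 in NK cells and at most 0.741 in B and T cells. All genes of both lists were above 0 in all 3 monocyte libraries. A list of 5 erythroid genes summed to 11.9 to 65.0 in NK cells, 18.9 to 40.2 in HSPCs, 25.6 to 40.8 in monocytes and at most 15.7 in B and T cells. The part of these lists in the results was not tested. In bulk libraries fewer cells of a type and less RNA per cell cannot be told apart.

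Mir142, the hematopoietic hairpin, was the most abundant member among 28 microRNAs of a blood list that passed the floor. The list held 66 genes with a row in all 5 tables, and 8 of the 28 passed only through monocyte libraries. Mir142 lies on chromosome 11 from 87756864 to 87756927 on the + strand, in an intron of the long non-coding RNA Mir142hg and opposite to Mir142b, with which it shares 31 bases. B cells had 142, 300 and 331 TPM, T cells 1075, 652 and 522, HSPCs 63.0, 77.4 and 60.9, NK cells 656, 562 and 627 and monocytes 0, 42.2 and 0. T and NK cells overlapped and lay above B cells, B cells lay above HSPCs, and monocytes lay below all others.

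The log2 fold change of Mir142 was 3.21 ± 0.85 in T cells (limma, adjusted p 0.00334) and 2.94 ± 0.85 in NK cells (adjusted p 0.0125), and it was called lower in monocytes (adjusted p 6.61e-06). The NK call was lost without NK cell library 1 (limma, adjusted p 0.0559), with a pseudocount of 0.1 (0.0836) and without a floor (0.0658). The host Mir142hg did not have this order: its mean TPM was 10.2 ± 2.54 in monocytes, 8.01 ± 3.06 in NK cells, 2.48 ± 0.325 in HSPCs, 2.66 ± 0.659 in T cells and 3.83 ± 1.46 in B cells (SD, n = 3). The host was thus highest by mean where the hairpin was listed at 0 in 2 of 3 libraries. Host values of monocytes and NK cells overlapped, and 86.7% of all transcripts tested were called higher in monocytes by limma.

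Mir150, the hairpin of a microRNA of mature lymphocytes (chromosome 7, 45121757 to 45121821, + strand, in no other annotated gene), was highest in T cells. B cells had 19.5, 55.2 and 76.9 TPM, T cells 417, 229 and 194, HSPCs 0, 2.62 and 0, NK cells 33.5, 52.6 and 71.6 and monocytes 20.3, 0 and 18.6. The 3 T cell libraries did not overlap the other 12, and the values of B and NK cells overlapped. The log2 fold change in T cells was 4.38 ± 0.79 (limma, adjusted p 1.77e-04) and 4.47 after rescaling (adjusted p 0.00167). Mir150 was called lower in HSPCs on both scales, and its lower call in monocytes was lost without monocyte library 2 (log2 fold change −0.61, limma adjusted p 0.314), with a pseudocount of 0.1 (0.0871) and without a floor (0.0673).

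Mir139 and Mir155 were highest in NK cells by mean and next highest in T cells. Mir139 lies on chromosome 7 in an intron of Pde2a, which encodes a phosphodiesterase. B cells had 4.86, 3.29 and 12.3 TPM, T cells 100.2, 48.6 and 48.4, HSPCs 1.57, 0 and 0, NK cells 132, 145 and 91.7 and monocytes 17.7, 0 and 0. NK and T cells overlapped, and both lay above all other libraries. It was called higher in NK cells (log2 fold change 4.27 ± 0.72, limma adjusted p 4.9e-04) and in T cells (3.08 ± 0.72, adjusted p 0.00149).

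Mir155, from chromosome 16 (84714140 to 84714204, + strand) in an exon of Mir155hg, had 62.8, 23.6 and 24.8 TPM in NK cells, 34.9, 12.4 and 15.8 in T cells, 2.48, 11.1 and 8.36 in B cells and 0, 2.61 and 0 in HSPCs, and was listed at 0 in all 3 monocyte libraries. It was called higher in NK cells (log2 fold change 3.15 ± 0.47, limma adjusted p 1.9e-04) and in T cells (2.18 ± 0.47, adjusted p 7.75e-04). The host transcript was near absent, at 0.205 ± 0.0893 TPM (SD, n = 3) in NK cells and less by mean in the other types. Mir132, whose microRNA is induced by CREB in other cells, had 25.1, 18.0 and 17.2 TPM in NK cells, at most 2.35 in B and T cells, and was listed at 0 in all HSPC and monocyte libraries. It passed the floor through NK cells alone. Its log2 fold change in NK cells was 3.74 ± 0.27 (limma, adjusted p 9.21e-07), and Mir30a, with 14, 5.49 and 10.1 TPM in NK cells and at most 4.19 elsewhere, was the other of 2 members called higher there without overlap (2.51 ± 0.26, adjusted p 1.3e-05), beside 0.392% of all transcripts tested.

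**Figure D4:**
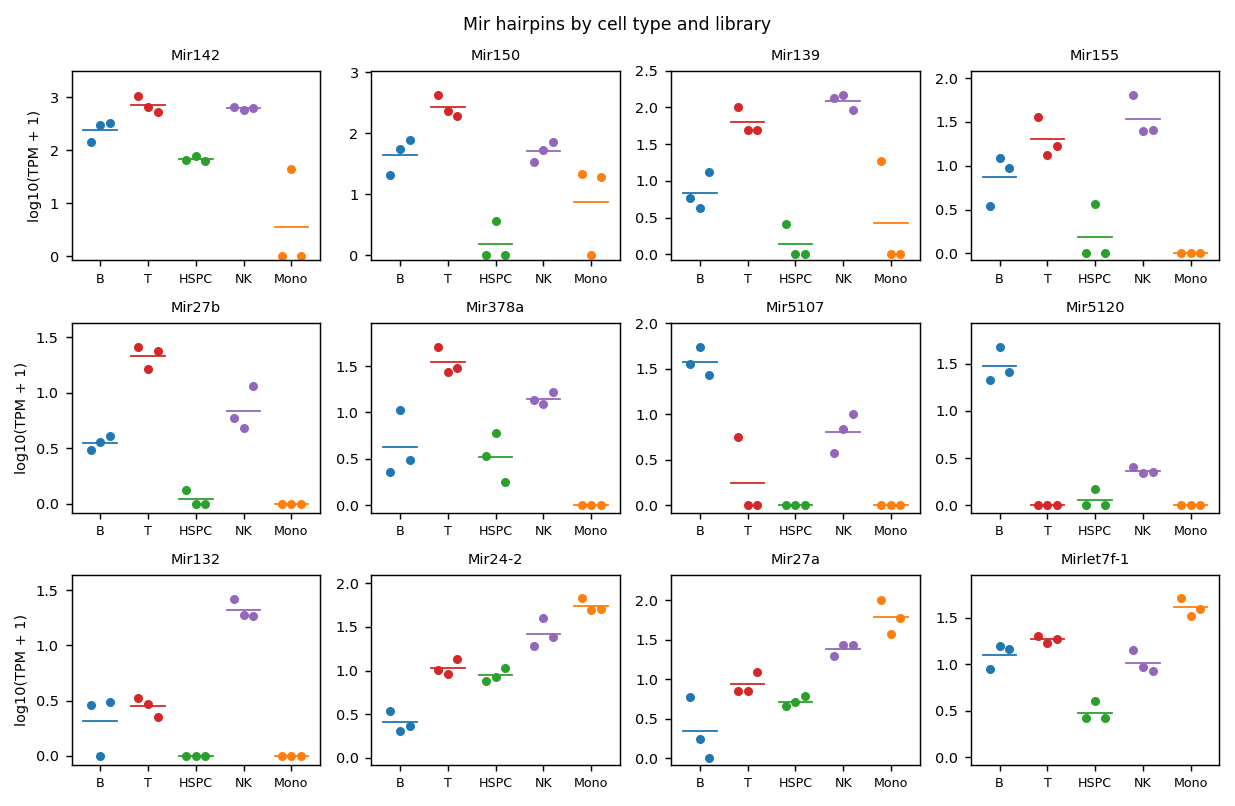
Level of 12 Mir hairpins as log10(TPM + 1) in each library (points, 3 per cell type) with the mean of the 3 (line), on a separate axis for each hairpin. Mir142, Mir150, Mir139 and Mir155 are higher in T and NK cells than in HSPCs, Mir5107 and Mir5120 are high in B cells, Mir132 in NK cells, and Mir24-2, Mir27a and Mirlet7f-1 in monocytes.

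The paralogous clusters miR-23a/27a/24-2 and miR-23b/27b/24-1 are given side by side, and no test compares them. The mature miR-24-3p of both is the same sequence, and miR-27a-3p and miR-27b-3p share the seed UCACAGU shown above. The first cluster covers 404 bases of chromosome 8 (84208518 to 84208921, + strand). Mir27a had 101.0, 36.7 and 59.3 TPM in monocytes, and NK cells 18.9, 26.4 and 26.1. T cells had 6.15, 6.18 and 11.6 TPM, HSPCs 3.6, 4.11 and 5.10, and B cells 4.98, 0.772 and 0. Mir24-2 had 66.4, 48.1 and 49.95 TPM in monocytes, and NK cells 18.3, 39.3 and 23.2. T cells had 9.26, 8.16 and 12.4 TPM, HSPCs 6.58, 7.49 and 9.80, and B cells 2.44, 1.05 and 1.32. Monocytes were highest and B cells lowest by mean in both hairpins, and for Mir24-2 the B cell libraries lay below all other 12.

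In monocytes the log2 fold change was 3.13 ± 0.43 for Mir27a (limma, adjusted p 9.32e-06) and 2.62 ± 0.25 for Mir24-2 (adjusted p 1.71e-07), about the median of 2.90 over all transcripts tested there. Quantile normalization gives every library the same distribution of values over all distinct transcripts. Under it the monocyte value fell to 0.49 for Mir27a (limma, adjusted p 0.344) and turned to −0.12 for Mir24-2. In B cells the log2 fold change of Mir24-2 was −2.93 ± 0.25 (limma, adjusted p 9.25e-07), and −3.22 after rescaling. Its HSPC value changed sign with the scale, from −0.68 (adjusted p 0.0259) to 1.06 (adjusted p 0.0125, limma). Mir23a, the remaining hairpin of the cluster, had 26.8, 53.3 and 98.5 TPM in monocytes, 18.8, 67.7 and 77.3 in NK cells and 22.4, 29.7 and 27.5 in HSPCs. B cells lay below these with 7.46 to 18.5 TPM, and the T cell libraries ranged from 3.58 to 39.9 TPM.

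The second cluster covers 792 bases of chromosome 13 (63300484 to 63301275, + strand) within the gene 2010111I01Rik. Mir27b had 24.7, 15.5 and 22.7 TPM in T cells, 4.97, 3.79 and 10.5 in NK cells, 2.03, 2.59 and 3.06 in B cells, and 0.337, 0 and 0 in HSPCs, and was listed at 0 in all 3 monocyte libraries. The T cell values were above those of all other types (log2 fold change 3.25 ± 0.22, limma adjusted p 1.26e-07). Mir24-1 was likewise called higher in T cells (14.3, 5.26 and 5.34 TPM; 2.56 ± 0.45, limma adjusted p 1.56e-04) and was listed at 0 in monocytes. The 5′ neighbour Mir23b did not share that pattern: it had 11.1, 6.70 and 9.52 TPM in T cells but 55.5, 13.8 and 12.8 in monocytes, where it was called higher (2.44 ± 0.42, limma adjusted p 8.38e-05). That value lay below the median of 2.90 over all transcripts, and under quantile normalization it turned to −0.19 (limma, adjusted p 0.736). By mean TPM as deposited, Mir23b was highest in monocytes and its neighbours in T cells.

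The other clusters of members were small. Mir25, Mir93 and Mir106b lie within 498 bases of chromosome 5 in Mcm7, which encodes a replication helicase subunit. Mir93 had 33.3, 11.6 and 15.9 TPM in NK cells and 17.3, 4.01 and 11.4 in T cells, was called higher in both (log2 fold change 2.67 ± 0.39 and 1.55 ± 0.39, limma adjusted p 1.76e-04 and 0.00251) and was listed at 0 in all monocyte libraries. The T cell call was lost in a fit without the monocyte libraries (0.94, limma adjusted p 0.102). Mcm7 itself was highest in monocytes, at 31.7 ± 1.26 TPM (SD, n = 3) against 1.22 ± 0.461 in T cells and 3.79 ± 1.51 in NK cells. Mir25 was called higher in T cells with 19.0, 9.64 and 9.96 TPM (1.99 ± 0.64, limma adjusted p 0.0117), a call lost without T cell library 1 (adjusted p 0.0667) and without a floor (0.0706). Mir106b passed the floor by a single monocyte value of 29.2 TPM and was called in no cell type.

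Members of the let-7 family, which hold cells in a differentiated state, share the seed GAGGUAG with Mir98 but not a pattern. Mirlet7f-1 had 51.2, 32.5 and 38.3 TPM in monocytes, 1.63, 3.02 and 1.63 in HSPCs and 7.51 to 19.1 in the lymphocytes, so that monocytes were above and HSPCs below all other libraries. Its log2 fold change was 2.14 ± 0.24 in monocytes (limma, adjusted p 1.08e-06), under the median of all transcripts there and −0.59 under quantile normalization, and −2.56 ± 0.24 in HSPCs (adjusted p 2.83e-06), where it was also called lower after rescaling (−1.29, adjusted p 0.00124). Mirlet7i was called higher in B cells instead (1.21, 13.2 and 15.4 TPM; 2.61 ± 0.46, limma adjusted p 3.72e-04), although B cell library 1 lay within the T cell range, and was listed at 0 in NK cells and monocytes. Mirlet7b was called higher in T cells (1.91, 3.05 and 11.5 TPM, log2 fold change 1.38 ± 0.34, limma adjusted p 0.00198) and in NK cells (0.98 ± 0.34, adjusted p 0.0291). The NK call was lost without NK cell library 1 (limma adjusted p 0.0654), 2 (0.0956) or 3 (0.0764), without a floor (0.129) and without the monocyte libraries (0.61, 0.301). Mirlet7a-1 had at most 12.3 TPM in any library and was called higher in none.

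The miR-15/16 hairpins, whose microRNAs restrain BCL2 and the cell cycle, all stayed low. Mir16-1 had 3.51, 8.41 and 10.9 TPM in B cells and was called higher there (2.42 ± 0.46, limma adjusted p 6.56e-04). Mir15a, in the same stretch of 231 bases of the Dleu2 locus on chromosome 14, had 1.88, 3.29 and 7.38 TPM in B cells and its highest values in monocytes (30.0, 0 and 18.4), with no call. Mir15b and Mir16-2 on chromosome 3 passed by monocyte values of 19.5 and 15.2 TPM. Mir16-2 was called higher in monocytes (1.57 ± 0.65, limma adjusted p 0.0358). That call was lost without monocyte library 1 (adjusted p 0.297) or 2 (0.158) and after rescaling (1.21, 0.239). It was also lost with a pseudocount of 0.1 (0.2) and without a floor (0.099). Leaving out B cell library 2 or 3, T cell library 2, HSPC library 1 or 2, or NK cell library 2 ended it narrowly (0.0502 to 0.0522). Under quantile normalization the value turned to −0.23 (limma, adjusted p 0.727).

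Of the miR-30 hairpins with the seed GUAAACA, Mir30e was called higher in T cells (25.4, 9.5 and 15.3 TPM, log2 fold change 2.21 ± 0.34, limma adjusted p 4.96e-05) and was listed at 0 in monocytes. It was also called higher in NK cells (1.24 ± 0.34, limma adjusted p 0.00947). The NK call was lost without NK cell library 1 (0.81, limma adjusted p 0.0932), under quantile normalization (1.02, 0.0703) and without the monocyte libraries (0.57, 0.347). Mir30c-1 passed by 1 monocyte value of 16.1 TPM with no call. Mir7-1, in an intron of Hnrnpk, had 65.2, 41.4 and 32.7 TPM in monocytes and 5.76 to 23.0 elsewhere. It was called higher in monocytes (1.67 ± 0.27, limma adjusted p 4.12e-05), below the median of all transcripts there, and its value was −1.09 under quantile normalization. Mir19b-1 of the miR-17-92 cluster had at most 11.1 TPM and was called higher in T and NK cells. Each call was lost without library 1 of that type (limma adjusted p 0.0658 in T cells, 0.071 in NK cells) or library 3 (0.0826 and 0.105). Each was also lost after rescaling (0.0941 and 0.0543) and without a floor (0.0721 and 0.0839). Mir128-1 had 16.3, 16.2 and 0 TPM in monocytes and was called higher there (1.80 ± 0.71, limma adjusted p 0.0282). That call was lost without monocyte library 1 or 2 (adjusted p 0.196 each), after rescaling (1.30, 0.234), with a pseudocount of 0.1 (0.179) and without a floor (0.0816). Under quantile normalization the value turned to −0.11 (limma, adjusted p 0.868).

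Mir223, the myeloid hairpin in an exon of F630028O10Rik on chromosome X, was not abundant. Monocytes had 13.3, 20.4 and 0.393 TPM, HSPCs 4.54, 5.56 and 2.94, NK cells 7.64, 1.69 and 2.96, and B cells at most 0.961, and it was listed at 0 in T cells. The monocyte libraries spanned the values of HSPCs and NK cells. It was called higher in monocytes as deposited (1.63 ± 0.61, limma adjusted p 0.0221) but not after rescaling (1.16, adjusted p 0.161). That call was also lost without a floor (adjusted p 0.0658) and without monocyte library 1 (0.136) or 2 (0.203). Quantile normalization turned the monocyte value to −0.30 (limma, adjusted p 0.571). In HSPCs Mir223 was called higher only after rescaling (3.18, limma adjusted p 0.00469, against 0.98 and 0.168 as deposited). The host transcript was at 25.4 ± 1.45 TPM in monocytes and 0.6 ± 0.230 in HSPCs (SD, n = 3).

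B cells had 4 of the 270 members called higher without overlap, beside 1.86% of all transcripts tested: Mir5107, Mir5120, Mir7212 and Gm56155. Mir5120 lies on chromosome 4 (44607491 to 44607568, − strand) in an intron of Pax5, the B cell identity factor. It had 20.1, 46.6 and 25.2 TPM in B cells and 1.52, 1.21 and 1.25 in NK cells, a single value of 0.482 in HSPCs, and was listed at 0 in all T cell and monocyte libraries. This gave a log2 fold change of 4.54 ± 0.19 (limma, adjusted p 2.09e-09). Pax5 had a mean of 23.3 ± 3.57 TPM in B cells, 1.44 ± 0.592 in NK cells and 1.29 ± 1.04 in monocytes (SD, n = 3), so that hairpin and host were both highest in B cells.

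Mir5107 lies in an exon of Cd74, the invariant chain of MHC class II, on chromosome 18. B cells had 34.7, 53.4 and 25.9 TPM, NK cells 2.75, 5.81 and 8.97, and T cells 4.56, 0 and 0, and it was listed at 0 in HSPCs and monocytes. The log2 fold change in B cells was 4.35 ± 0.44 (limma, adjusted p 3.74e-06). Cd74 had 872 ± 141 TPM in B cells, 129 ± 11.0 in NK cells and 37.0 ± 6.65 in monocytes (SD, n = 3), a like order except for monocytes. Mir7212, in an intron of Retreg1, had 8.13, 15.03 and 7.00 TPM in B cells (2.59 ± 0.45, limma adjusted p 3.4e-04), and Gm56155 had 19.7, 61.7 and 76.9 TPM in B cells against 1.64 to 16.7 elsewhere (2.70 ± 0.37, limma adjusted p 4.66e-05).

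T cells had 5 of the 270 members called higher without overlap, beside 2.22% of all transcripts tested: Mir150 and Mir27b above, Mir378a, Mir1904 and Snord43. Mir378a, in an intron of Ppargc1b on chromosome 18, had 49.4, 26.6 and 29.0 TPM in T cells, 12.5, 11.4 and 15.5 in NK cells, 0.799 to 9.59 in HSPCs and B cells, and was listed at 0 in monocytes (log2 fold change in T cells 3.21 ± 0.41, limma adjusted p 1.05e-05). Mir3572, in an exon of Cnot3, had a like order without the gap: 33.4, 17.2 and 23.8 TPM in T cells, 17.1, 19.6 and 12.9 in NK cells, 4.03 to 8.07 in B cells, 0.523 to 0.895 in HSPCs and 0 in monocytes. It was called higher in T cells (2.71 ± 0.21, limma adjusted p 3.15e-07) and in NK cells (2.05 ± 0.21, adjusted p 1.2e-05). Cnot3, a subunit of the deadenylase complex, was highest in monocytes instead, at 24.9 ± 4.09 TPM against 1.64 ± 0.746 in T cells (SD, n = 3).

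Snord43 is named as a box C/D snoRNA, a guide of ribose methylation, but carried gene type miRNA. It and the next member were chosen after their values were seen. Its TPM was 128, 121 and 62.0 in T cells, 57.3, 47.4 and 52.0 in NK cells, 29.7, 11.8 and 10.9 in monocytes, 9.18, 9.28 and 7.03 in HSPCs and 3.77, 6.18 and 9.06 in B cells (log2 fold change in T cells 2.68, limma adjusted p 7.19e-06). Mir677, whose hairpin lies in an intron of Atp5b on chromosome 10 and is also annotated as a snoRNA, had 504, 154 and 414 TPM in T cells, 143, 131 and 114 in NK cells, 84.3, 0 and 168 in monocytes, 14, 14.8 and 16.5 in HSPCs and 13.4, 56.2 and 30.7 in B cells. Its log2 fold change in T cells was 3.19 (limma, adjusted p 0.0164), a call lost after rescaling (2.70, adjusted p 0.0571), and T cells overlapped with monocytes.

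A sequence feature that the choice of members did not use bears on these entries. Box C/D snoRNAs carry a box C, searched here as TGATGA, followed downstream by a box D, searched as CTGA, on the transcript strand. The pair was found in 5 of the 137 matched members (Mir677, Snord43, Mir7227, Mir3535 and Mir6539), in 11 of all 2202 microRNA hairpins of GENCODE M21 (0.50%) and in 24.0% of its 1507 snoRNAs. In the mature miR-677-5p above, the letters UGAUGA run from the end of the seed into the bases after it. Separately, 5 members (Mir677, Mir3535, Mir1843b, Mir3068 and Mir1949) shared a stretch of 31 bases with a gene annotated as snoRNA or scaRNA. Mir1843b shared it with Scarna3a and had 38.7, 57.9 and 53.4 TPM in monocytes against at most 3.83 elsewhere (4.34, limma adjusted p 9.01e-07).

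HSPCs had 3 members called higher as deposited: the same-valued Gm55936, Gm55094 and Gm55118, then Gm55276 and Gm55286. Gm55276 had 1322, 1222 and 1416 TPM in HSPCs, 776, 931 and 1995 in monocytes, 657, 864 and 976 in NK cells, 221, 399.9 and 245 in T cells and 537, 91.2 and 63.2 in B cells, so that HSPCs overlapped with monocytes only. The log2 fold change was 1.58 ± 0.50 (limma, adjusted p 0.0122) and 3.31 after rescaling (adjusted p 2.7e-04), but the first was not called without a floor (adjusted p 0.0684). It was also called higher in monocytes (1.30 ± 0.50, adjusted p 0.024), a call lost after rescaling (0.32, adjusted p 0.548, limma), without a floor (adjusted p 0.0696) and without monocyte library 3 (0.89, adjusted p 0.155). Gm55286 had 86.5, 106 and 54.1 TPM in HSPCs (2.56 ± 0.87, limma adjusted p 0.0179), a call lost without HSPC library 1 (adjusted p 0.0634) or 2 (0.0675), with a pseudocount of 0.1 (0.0772) and without a floor (0.0898).

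After rescaling 28 members were called higher in HSPCs, 10.4% of members, beside the 28.3% of all transcripts. Mir6236 was among them: 18535, 25585 and 22744 TPM in HSPCs as deposited lay between the 26169, 40818 and 38671 of B cells and the 7970, 14613 and 13290 of T cells, with a log2 fold change of 0.33 ± 0.18 (limma, adjusted p 0.113), whereas the rescaled value was 2.06 ± 0.18 (adjusted p 5.99e-06) without overlap. Mir6236 was lower in monocytes on both scales (8436, 9072 and 8261 TPM; −1.37 ± 0.18, limma adjusted p 5.22e-06). Its hairpin (chromosome 9, 110281287 to 110281409, + strand, 123 bases) overlapped no other M21 gene and shared no 31 bases with any. It was not compared with the large ribosomal RNAs here.

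Mir6240 (chromosome 5, 114851948 to 114852064) also lay outside every other annotated gene and had 346, 603 and 385 TPM in NK cells and 86.5 to 365 in the other libraries. It was called higher in NK cells (0.97 ± 0.31, limma adjusted p 0.0195), a call lost without NK cell library 2 (0.73, adjusted p 0.12), after rescaling (0.68, 0.0858), under quantile normalization (0.71, 0.0679), without a floor (0.0717) and without the monocyte libraries (0.96, 0.0816). After rescaling it was called higher in HSPCs instead (1.43, limma adjusted p 0.00266). Mir7687, in an intron of Gse1, was the only Mir above 10 TPM in all 3 libraries of HSPCs whose mean was highest there, with 41.0, 30.6 and 46.9 TPM against 0, 53.4 and 24.6 in monocytes and 0.993 to 24.1 in the lymphocytes. It was called only after rescaling (4.11, limma adjusted p 0.011, against 2.20 and 0.0558 as deposited). Mir1983, by contrast, had 1.79, 2.63 and 2.16 TPM in HSPCs, below the other 12 libraries (7.25 to 32.7), and was called lower on both scales (−2.20 ± 0.28 as deposited, limma adjusted p 2.77e-05).

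**Figure D5:**
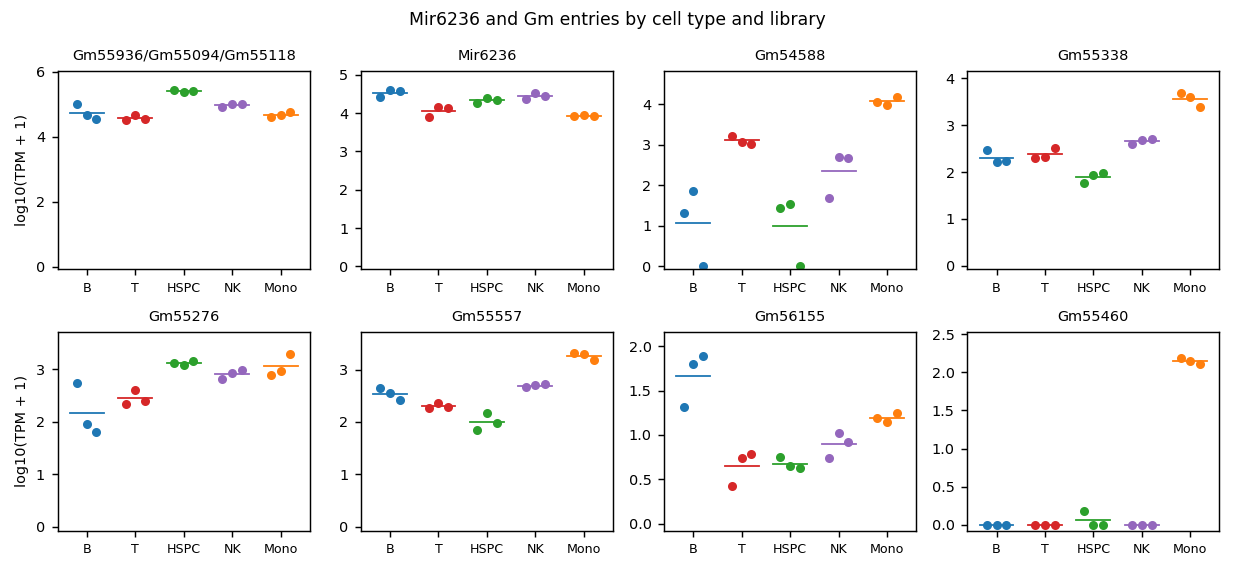
Level of Mir6236 and 7 Gm entries as log10(TPM + 1) in each library (points, 3 per cell type) with the mean of the 3 (line), on a separate axis for each. The 3 same-valued Gm entries are highest in HSPCs, Gm54588, Gm55338, Gm55557 and Gm55460 in monocytes, and Gm56155 in B cells.

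In monocytes the Gm entries made up most of the calls. Gm54588 had 11315, 9881 and 15422 TPM in monocytes, 1707, 1192 and 1066 in T cells, 46.8, 504 and 471 in NK cells, 26.6, 34.5 and 0.0383 in HSPCs and 20.1, 72.6 and 0.000177 in B cells (log2 fold change 7.29 ± 1.22, limma adjusted p 6.07e-05). The T cell libraries lay between monocytes and the rest. Gm55338 had 4881, 4085 and 2454 TPM in monocytes, 394 to 505 in NK cells, 163 to 319 in B and T cells and 56.6 to 95.4 in HSPCs (4.16 ± 0.27, limma adjusted p 2.81e-09). As deposited, Gm55557, Gm56307, Gm55149 and Gm54995 had the same order of extremes, with 696 to 2254 TPM in monocytes, 38.6 to 523 in lymphocytes and 25.3 to 145 in HSPCs. They were called higher in monocytes (2.86 to 3.43, limma adjusted p 9.99e-09 to 3.45e-07). After rescaling, T cells and not HSPCs lay below all other libraries for each of these (−2.05 to −1.40, limma adjusted p 2.5e-06 to 7.88e-05). Their rescaled HSPC values were −0.77 to −0.37, and that of Gm55149 was not called (limma, adjusted p 0.322). For Gm55338, HSPCs also overlapped with other libraries on that scale.

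Gm54610 had 355, 707 and 326 TPM in monocytes and 74.7, 540 and 406 in B cells, and its monocyte call (3.93 ± 1.5, limma adjusted p 0.0239) was lost without monocyte library 1 (adjusted p 0.0524) or 2 (0.0821), after rescaling (3.72, 0.0805), without a floor (0.0701) and under quantile normalization (2.54, 0.176). As deposited, Gm54397 and Gm54660 were lowest in HSPCs, at 10.3 to 27.4 and 4.4 to 9.01 TPM, below all other 12 libraries. After rescaling, HSPCs overlapped with other libraries for both, though still called lower (log2 fold change −1.25 and −1.34, limma adjusted p 0.034 and 0.0084). For Gm54660 the rescaled T cell value was −1.42 (limma, adjusted p 0.00211). Gm54453 was an NK entry by mean, with 71.3, 94.7 and 79.0 TPM there, overlapping with the 82.9 TPM of monocyte library 2 (1.89 ± 0.49, limma adjusted p 0.00701).

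Some entries were found in monocytes nearly alone. Gm55437 had 190, 230 and 303 TPM there and at most 1.64 in any other library, Gm55288 had 107, 187 and 244 against at most 1.26, and Gm55460 had 154, 142 and 129 against a single value of 0.501 in HSPC library 1. Their log2 fold changes of 7.50 ± 0.36, 7.17 ± 0.28 and 7.11 ± 0.12 (limma, adjusted p 1.24e-10, 1.94e-11 and 1.87e-14) depend on the pseudocount, since the other libraries are at or near 0. Mir8114, within an exon of Glul with which it shares bases, was the highest Mir in monocytes after Mir6236 (382, 207 and 231 TPM against 15.5 to 76.2; 2.83, limma adjusted p 1.73e-06). It was chosen after its values were seen.

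Most of the members called lower in monocytes were named hairpins. Of the 99 members that passed the floor through a library outside monocytes, 30 were called higher and 39 lower in monocytes by limma, and of the 171 that passed through monocytes alone 73 were called higher and 0 lower. The floor itself favours lower calls among the 99 and higher calls among the 171, so both counts are a description. Of the 39 called lower, 34 were Mir, and 30 were listed at 0 in all 3 monocyte libraries. By mean these 39 were highest in T cells (14), NK cells (14), B cells (10) and HSPCs (1). A value of 0 in monocytes is a limit of unknown size, because those libraries held few values under 5 TPM and no depth is known.

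The transcripts of the machinery and of a list of host genes are given beside the members. Of 20 machinery genes (among them Drosha, Dgcr8, Dicer1 and Ago1 to Ago4), 6 had transcripts above the floor, 14 in all, of which only 3 passed through a library outside monocytes. Of these 14, 12 were called higher by limma in monocytes, where 86.7% of all transcripts were, 13 lower in T cells (75.4%), 10 lower in HSPCs (70.3%) and 2 lower in NK cells (45.1%), and in B cells 1 was higher and 4 lower (8.27% and 50.8%). After rescaling, 4 were higher and 0 lower in HSPCs (28.3% and 15.6%). Of a list of 18 host genes of blood microRNAs, of which not all are hosts of members, 10 had 13 transcripts above the floor, 0 of them through a library outside monocytes. For transcripts that passed through monocytes alone the floor favoured a higher call there, so both lists' counts are a description. All 13 were called higher in monocytes on both scales, and as deposited 11 were lower in HSPCs and 9 in T cells, whereas after rescaling 3 were higher and 3 lower in HSPCs. For the machinery, the monocyte and HSPC counts as deposited are about the share of all transcripts. Mir93, Mir3572 and Mir155 were listed at 0 in all 3 monocyte libraries and Mir142 in 2 of 3, while Mcm7, Cnot3 and Mir142hg, but not Mir155hg, were highest by mean there.

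In the total RNA of PBMCs 137 of the 270 members had a row, and 73 had an expected count above 0 in at least 1 of the 9 libraries, 26 in all 9 and 64 in none. The libraries held 4686426 to 9055797 expected counts in all. Only 10 members reached 10 or more counts in every library. Mir6236 was highest there too, with a median of 2880 (1860 to 6125), followed by Snord43 with 602 (389 to 847), Mir3535 with 473 (354 to 630) and Mir6240 with 146 (100 to 249). Of the blood microRNAs Mir16-1 (26.2 to 63.5 counts), Mir16-2 (14.3 to 49.9), Mir150 (11 to 25) and Mir23a (11 to 24) reached that level, and the 2 others were Mir3068 (24.6 to 81.6) and Mir1843b (10.9 to 57.2). Mir142 had 0.11 to 6.35 counts, and Mir155 was listed at 0 in all 9 libraries. Counts and surface TPM are on different scales, so no level is compared between them.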

How the data were processed

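Surface RNA was measured in 15 AMOUR libraries and total RNA in 9 PBMC libraries. The authors deposited surface values as TPM per transcript, made with kallisto per the labels, 1 table per cell type. The PBMC table holds expected counts per gene, which the authors made with RSEM after trimming and STAR alignment. For kallisto the study's methods name a human reference (hg38), whereas the tables hold mouse Ensembl transcripts and the submitters' processing notes name mm10. The release of the mouse transcript set and the kallisto settings are not given in the sources used here. Both replicate libraries and cell types were taken from the labels, which do not say whether libraries came from separate animals, so p-values measure the spread between these libraries. No pair of libraries held identical member values. TPM keeps no depth, so no counting interval is given.

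The 5 tables were joined on transcript, and microRNA rows with the same values in all libraries were counted once. The members, gene lists and tests were chosen with earlier results of these data known. Transcripts above 10 TPM in at least 1 library entered limma (3.58.1, R 4.3.3) on log2(TPM + 1), with the 5 types in 1 fit and each type set against the mean of the other 4. Adjusted p-values are Benjamini-Hochberg over all transcripts tested, called under 0.05. Tables were handled with Python 3.11.15, pandas 2.3.3 and numpy 2.4.6. On data simulated for the T cell contrast over 6119 transcripts, 200 shifted ones were recovered to 51.5% at a log2 shift of 1, 89% at 2 and 95% at 3, with 6, 6 and 11 unshifted ones called.

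The genes named were the 12 members with the highest mean, the members of a list of blood microRNAs, per contrast, direction and scale up to 3 called members with the largest change whose libraries did not overlap the other 12, and the 2 entries on each side of the floor. Genes outside this rule are named as such, or belong to a count of 5 or fewer, a cluster, a seed or a motif. Hairpin positions came from GENCODE M21 (GRCm38), sequences from RefSeq, and both may differ from the set the authors used. Alternatives were rescaled TPM, quantile normalization, a pseudocount of 0.1, a floor of 50 TPM, no floor, a replicate block, the fit without monocytes, and leaving out each library.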

Additional observations from a re-analysis of the deposited data

How the results depend on the processing

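All of the following counts are members called by limma, with the value as reported in parentheses, and the cause of a change was not tested beyond what each setting removes. The share of all transcripts called is given only for TPM as deposited and rescaled. Under the other settings a changed count is therefore not read as a result about the members. A floor of 50 TPM left 60 members, so its counts are lower by construction: for monocytes 39 higher and 10 lower, for NK cells 14 and 10, for T cells 10 and 25, for B cells 6 and 18, and for HSPCs 42 lower. Without a floor, 13 were higher in B cells (22), 24 lower in T cells (40), 1 higher in HSPCs (3), and 18 higher and 12 lower in NK cells (30 and 23). Rescaling gave 19 lower in B cells (34) and, in HSPCs, 28 higher (3) and 33 lower (71). Quantile normalization gave 55 higher and 19 lower in T cells (31 and 40), 26 and 36 in HSPCs, 11 lower in NK cells (23), and 38 higher and 68 lower in monocytes (103 and 39). With a pseudocount of 0.1, 20 were lower in B cells and 14 in NK cells. Without the monocyte libraries, 3 were lower in NK cells, 13 in T cells and 22 in B cells, and 12 were higher in HSPCs.

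A floor of 10 TPM in at least 3 libraries, added after the data were seen, left 94 members, with 11 higher in B cells and 55 higher and 23 lower in monocytes. The number of members itself (270) was 60 at a floor of 50 TPM, 515 where the floor was applied to rescaled TPM, 94 above 10 TPM in at least 3 libraries and 81 above it in all 3 libraries of a type, the last also added after the data were seen.

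Leaving out 1 library at a time gave for monocytes 98 to 118 higher and 36 to 44 lower, for NK cells 24 to 36 and 15 to 33, for HSPCs 2 to 8 and 55 to 87, for T cells 23 to 36 and 31 to 54, and for B cells 12 to 24 and 25 to 44, with 228 to 270 members. Counts moved by over 1.5 times without B cell library 2 or 3 (12 higher in B cells each), NK cell library 1 (15 lower in NK cells) and, for HSPCs, monocyte library 1 (8 higher), 2 (6) or 3 (6).

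The replicate block gave for monocytes 102 higher and 40 lower, for NK cells 28 and 22, for HSPCs 5 and 72, for T cells 33 and 41, and for B cells 22 and 35. The numbers do not pair the libraries: over 30 same-numbered pairs the correlation of deviations ran from −0.28 to 0.42 with a median of 0.0046, and 5 pairs exceeded 0.1.

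Among named members, the log2 fold change of a called value turned sign as follows. Without the monocyte libraries it was 0.31 for Gm55338 in T cells, 0.088, 0.081 and 0.35 for Gm55437 in B cells, T cells and HSPCs, 0.44 and 0.20 for Gm55288 in T and NK cells, and 0.20 for Gm55460 in HSPCs. In HSPCs after rescaling it was 0.43 for Mir27a, 0.35 for Mir7-1, 1.06 for Mir24-2, 0.12 for Gm56155 and 0.53 for Mir378a, and under quantile normalization 0.031 for Mir27a, 0.21 for Mir7-1 and 0.81 for Mir24-2. In monocytes under quantile normalization it was −0.0063 for Gm54397, −1.09 for Mir7-1, −0.12 for Mir24-2, −0.59 for Mirlet7f-1, −1.57 for Mir1983, −0.19 for Mir23b, −0.30 for Mir223, −0.11 for Mir128-1, −0.38 for Gm55272 and −0.23 for Mir16-2. Of the 156 called values of named members, 40 were no longer called without a floor, 26 under quantile normalization, 20 with a pseudocount of 0.1 and 3 with the replicate block. After rescaling 24 of 153 were lost, and without the monocyte libraries 32 of 111, beside those that turned sign.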

Other observations

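The monocyte table also listed 1040 microRNA rows that had no row in the other 4 tables and so could not be members. Of these 73 were above 0 in at least 1 monocyte library, 35 above 10 TPM in at least 1, and 6 above 10 TPM in all 3. Gm55099 was the highest, with 5215, 5039 and 3468 TPM. Gm54464 had 152, 104 and 199 TPM, Gm55640 had 148, 122 and 112, and Gm55302 had 129, 32.2 and 29.7. Gm56433 had 15.1, 37.2 and 44.0 TPM, and Mir875 had 24.1, 12 and 11.1. No value of these rows exists here for another cell type, so they enter no comparison.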
